A study of Drosophila melanogaster with 59 samples.

Results

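The microRNA hairpins mir-986, mir-990 and mir-4940 of Drosophila melanogaster were followed across 4 fly lines and 2 tissues. They are 3 of the 256 hairpins listed in each small RNA library, and they were chosen by their difference between the lines Fab2L and w1118 in heads, where they had the 3 smallest p-values. That difference is therefore described below and not tested. All 3 hairpins passed the filter on low counts in heads, and 1, mir-986, passed it in eggs.

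The libraries come from a study of inherited chromatin states, in which lines that share 1 transgene differ in a heritable state. All 4 lines are in the Oregon-R strain and carry w1118, an allele of the eye color gene white. The line w1118 has no transgene, and Fab2L, Fab2L White* and Fab2L Red* (White* and Red* from here on) carry the Fab2L transgenic insertion. Each is a single line, so that a line's genetic background and its transgene cannot be told apart. Small RNA of 18 to 30 nt was sequenced from heads of adult males at 4 days of age and from eggs that were not fertilized. Each line gave 2 libraries per tissue, so there were 8 from heads and 8 from eggs. Long RNA above 200 nt was sequenced in separate libraries of the same lines and tissues. Nothing in the labels says that the 2 libraries of a line are separate cultures, so a p-value here weighs a difference only against library-to-library spread, and that may be technical. For the egg samples the extraction protocol speaks of heads, but titles and sources say eggs and were followed.

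A microRNA is cut from a hairpin in a longer transcript by Drosha with its partner Pasha in the nucleus and then by Dicer-1 in the cytoplasm. The product, about the length sequenced here, is loaded into Argonaute 1 and lowers the translation and stability of mRNAs that pair with its seed. Many hairpins lie inside other genes and can share their transcripts. The unfertilized egg holds RNA loaded by the mother during oogenesis, whereas the head is rich in neurons, photoreceptors, muscle and fat body.

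All positions are on build dm6. The mir-986 hairpin, 100 nt long, spans chromosome arm 2R from 8444982 to 8445081 on the plus strand. It lies inside the span of Cyp4e2, a cytochrome P450 gene at 2R 8444560 to 8447164. The mir-990 hairpin spans 2R from 16895223 to 16895308 on the minus strand, inside CG8910 at 2R 16874724 to 16895652. The mir-4940 hairpin spans 3L from 9144593 to 9144697 on the plus strand, inside nwk at 3L 9137860 to 9145693. The nwk gene encodes Nervous wreck, an F-BAR protein that limits growth of neuromuscular synapses. Exons, introns and strands of these host genes were not used here, and neither were the mature sequences. Within 20 kb of the hairpins lie 19 further genes.

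**Figure D1:**
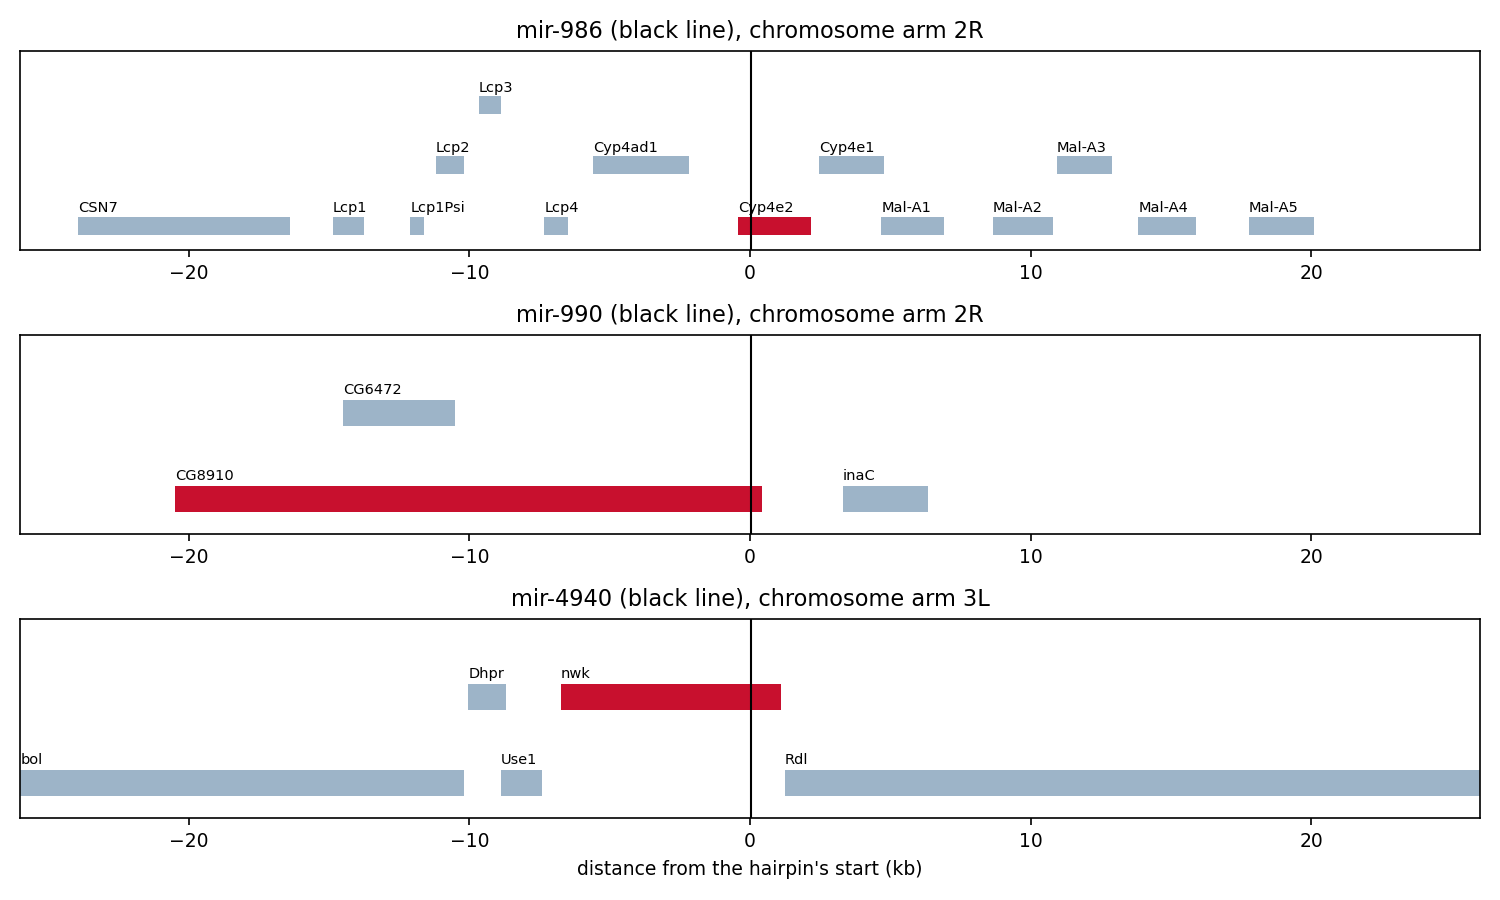
Genes within 20 kb of each hairpin, drawn to scale in kb from the hairpin's start on the reference axis. Red bars are host genes whose span holds the hairpin, blue bars the 19 neighbours, and the spans of bol and Rdl run past the edges. All 3 hairpins lie inside a gene: Cyp4e2, CG8910 and nwk.

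The tissues matched their labels. The maternal hairpins mir-310 to mir-313, 4 of 4 found, summed to between 518398 and 569859 CPM in eggs and between 9.97 and 23.8 CPM in heads. The level of a hairpin is its unique count scaled to 1 M summed hairpin counts of the library (CPM). The neuronal mir-124 lay between 780 and 1041 CPM in heads and between 0 and 47.7 CPM in eggs. The summed hairpin counts ran from 12.02 to 20.22 M for head libraries and from 0.270 to 1.14 M for egg libraries, so rare hairpins are measured more finely in heads.

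In heads, mir-986 was low in w1118 and high in the 3 lines with the transgene. Its level was 485 and 556 CPM in the 2 libraries of w1118, from 5826 and 8377 counts. It was 3344 and 3412 CPM in Fab2L, 3572 and 3373 CPM in White*, and 4094 and 4079 CPM in Red*. No library of these lines overlapped w1118, and the lowest of them was Fab2L replicate 1. For all 3 hairpins the choice on w1118 and Fab2L heads favoured such separation. The share of all hairpins that separate in this way is not given here. The line means, 3378 ± 48.1 CPM in Fab2L, 3472 ± 141 CPM in White* and 4086 ± 11.0 CPM in Red* (SD, n = 2 each), were 6.49-fold, 6.68-fold and 7.86-fold that of w1118, 520 ± 50.2 CPM (SD, n = 2). By mean level mir-986 was the 50th most abundant hairpin in w1118 heads and the 31st in Fab2L heads.

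The other two hairpins ran the other way in heads. Levels of mir-990 were 366 and 339 CPM in w1118, 79.7 and 85.8 CPM in Fab2L, 91.7 and 81.2 CPM in White*, and 80.3 and 96.1 CPM in Red*. The transgenic lines thus held 23.5%, 24.5% and 25.0% of the w1118 mean, and their libraries overlapped one another but not w1118. The rarest of the 3 hairpins, mir-4940, had 159 and 187 counts in w1118, which is 13.2 and 12.4 CPM. It had 37 and 25 counts in Fab2L, 58 and 37 in White*, and 50 and 71 in Red*. These are 1.83 and 1.51 CPM, 4.39 and 2.84 CPM, and 3.04 and 3.70 CPM. White* and Red* overlapped, Fab2L lay below both, and w1118 lay above all. The means of Fab2L, White* and Red* were 13.0%, 28.2% and 26.3% of the w1118 mean.

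**Figure D2:**
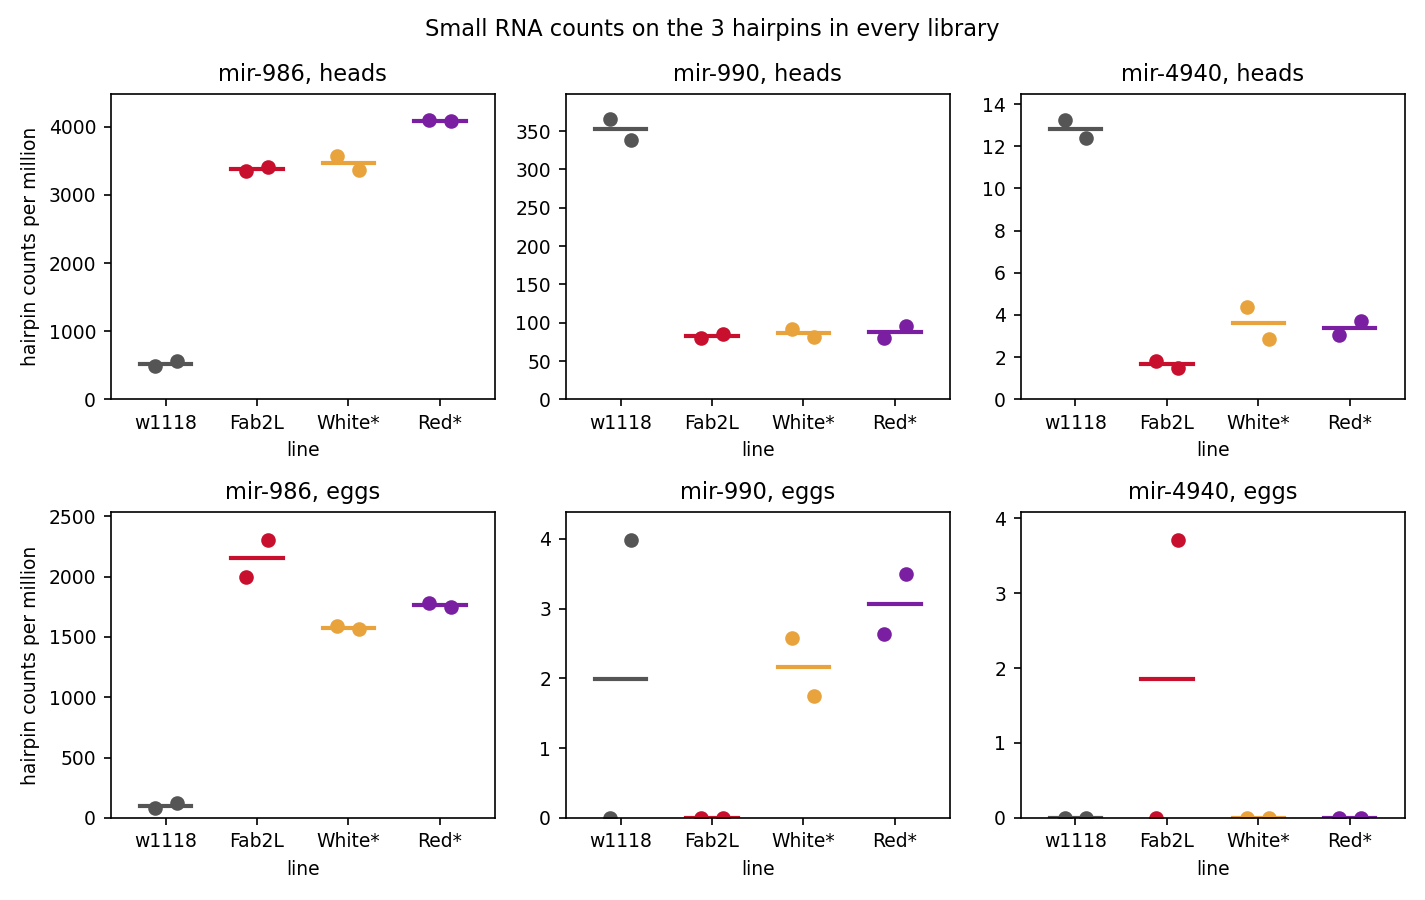
Level of mir-986, mir-990 and mir-4940 in CPM (counts scaled to 1 M summed hairpin counts), in heads (top) and eggs (bottom), by line. Each point is 1 library, each bar the mean of 2, and every panel has its own linear axis from 0. In heads mir-986 lies between 485 and 556 in w1118 and at 3344 or above elsewhere, mir-990 and mir-4940 are highest in w1118, and in eggs the last 2 rest on 0 to 3 counts.

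The counting error of these levels is small for mir-986 and larger for mir-4940. Exact Clopper-Pearson 95% intervals, which cover counting error only, had half-widths of 0.70% to 2.58% of the value for mir-986 in heads, 2.75% to 6.07% for mir-990 and 14.6% to 41.5% for mir-4940.

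The contrast that chose the hairpins called 15 of the 172 hairpins tested in heads, or 8.72%, at an adjusted p under 0.05 (edgeR's quasi-likelihood test, Benjamini-Hochberg). In that fit the log2 difference of Fab2L minus w1118 was 2.79 for mir-986, -1.99 for mir-990 and -2.83 for mir-4940. Ordered by p these are the first 3 hairpins. Ordered by size among the 15 called, mir-4940 came after mir-4909, and mir-990 stood 6th. The 5 hairpins of largest difference outside the rule were mir-4909 (4.02), mir-960 (-2.45), mir-4958 (-2.35), mir-4919 (-1.07) and mir-2b-2 (0.57). All but the last are rare, with line means of at most 21.9 CPM in heads, and so is mir-4940. Of these, mir-4919 had 272 and 318 counts in w1118 against 193 and 165 in Fab2L, more than mir-4940 in both lines. For mir-960 the counts were 106 and 113 against 28 and 23. By p, mir-960 stood 4th and mir-4919 5th. Lower still were mir-4909, with 0 and 2 counts in w1118 against 29 and 17 in Fab2L, and mir-4958, with 9 and 16 counts against 3 and 3. The most abundant of the 5 was mir-2b-2, a copy of the mir-2 family, at 219 and 221 CPM in w1118 and 322 and 290 CPM in Fab2L, and reads may be shared between such copies.

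Patterns most like each hairpin were ranked by Pearson's r of TMM-scaled log2 CPM over the 8 head libraries, against 171 other hairpins. The 2 libraries of w1118 stand apart from the rest, so r mainly records that split. Closest to mir-986 were mir-4909 (r = 0.97), mir-2b-2 (0.92) and mir-4987 (0.89). Closest to mir-990 were mir-960 (0.92), mir-4940 (0.92) and mir-276b (0.92), and closest to mir-4940 were mir-990 (0.92), mir-4919 (0.88) and mir-960 (0.84). The r of mir-986 was -0.99 with mir-990 and -0.91 with mir-4940. All of these hairpins were chosen by their Fab2L minus w1118 difference in heads. The r among mir-986, mir-990 and mir-4940 therefore largely repeats that choice. The abundant mir-276b illustrates how small a shift can rank high: it had 50244 and 51162 CPM in w1118 and 41487 to 44656 CPM in the other 6 libraries.

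Some markers of other tissues moved with the w1118 heads, and others did not. The 6 hairpins mir-959 to mir-964, a cluster known from testis and also from the fat body of heads, were all detected and summed to 17.1 and 16.6 CPM in w1118 against 3.41 to 6.37 CPM in the other lines. The maternal hairpins summed to 21.96 and 23.8 CPM in w1118 heads and to 9.97 to 15.3 CPM in the other lines. Within the testis list mir-960 had 8.82 and 7.50 CPM in w1118 and 1.38 and 1.39 CPM in Fab2L. Of the testis mRNAs bol, Mst84Dc and aly, only bol, a neighbour of mir-4940, exceeded a line mean of 1 FPKM in heads. It did not follow, at 28.9 and 35.7 FPKM in w1118 and 25.2 to 48.6 FPKM in the other lines. In heads of w1118 the fat body mRNAs Lsp2, fit and to, 3 of 3 found, summed to 440 and 674 FPKM, against 47.5 to 97.4 FPKM in the other lines. The midgut proteases alphaTry, betaTry and Jon65Aiv summed to 19.4 and 97.6 FPKM in w1118 and to 0 to 34.2 FPKM elsewhere, where Red* replicate 1 lay within the w1118 range. The muscle mRNAs Mhc, Act88F and up summed to 436 and 572 FPKM in w1118 and to 279 to 402 FPKM elsewhere. The muscle hairpin mir-1 did not follow, at 107 and 147 CPM in w1118 and 121 to 187 CPM elsewhere. Photoreceptor mRNAs summed to 11976 and 11198 FPKM in w1118 and to 9322 to 12993 FPKM elsewhere. Sums for neurons, glia and hemocytes also overlapped between w1118 and the other lines. The part of these markers in the differences of the 3 hairpins was not tested. In bulk RNA, fewer cells of a type and less RNA per cell cannot be told apart.

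The contrast that chose the hairpins did not compare Red* with White* heads, so the contrast between these lines could be tested. Their libraries did enter the joint fit behind the ranking by p, through its shared estimate of spread. Neither mir-986, mir-990 nor mir-4940 was called, where 2.33% of 172 hairpins were. For mir-986 the log2 difference of Red* minus White* was 0.23 (95% interval 0.02 to 0.45), a fold of 1.18, with an adjusted p of 0.326 in edgeR and an unadjusted p of 0.0379. For mir-990 it was 0.03 (-0.23 to 0.29, edgeR adjusted p = 0.978), and for mir-4940 it was -0.09 (-0.61 to 0.42, edgeR adjusted p = 0.929). The intervals leave room for folds of 0.654 to 1.34 for mir-4940 and of 0.854 to 1.22 for mir-990. A difference as large as that of these lines from w1118, whose heads helped choose the hairpins, lies outside all 3 intervals.

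Egg libraries had no part in the choice, and in eggs mir-986 differed between w1118 and each transgenic line. The 2 egg libraries of w1118 held 36 and 60 counts of mir-986, which is 83.5 and 119 CPM. Levels were 1998 and 2304 CPM in Fab2L, 1593 and 1564 CPM in White*, and 1784 and 1749 CPM in Red*. All 6 libraries with the transgene lay far above both of w1118. The line means, 2151 ± 217 CPM in Fab2L, 1578 ± 20.5 CPM in White* and 1767 ± 24.6 CPM in Red* (SD, n = 2 each), were 21.2-fold, 15.6-fold and 17.4-fold that of w1118, 101 ± 25.3 CPM (SD, n = 2). In eggs mir-986 was the 53rd most abundant hairpin in w1118 and the 24th in Fab2L and White*.

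All 3 contrasts of mir-986 with w1118 in eggs were called. The log2 difference was 4.16 in Fab2L (SE 0.18, edgeR adjusted p = 2.35e-11), 4.16 in White* (SE 0.18, edgeR adjusted p = 2.15e-11) and 4.12 in Red* (SE 0.18, edgeR adjusted p = 2.30e-11). The 3 contrasts share the 2 w1118 libraries. Calls were common in eggs, at 64.5% of 76 hairpins for Fab2L minus w1118, 63.2% for White* minus w1118 and 35.5% for Red* minus w1118, so a call alone sets mir-986 little apart. It was the highest of the 76 signed differences in each of the 3 contrasts, and by p it ranked 2nd in each. By absolute size it ranked 7th in Fab2L, 4th in White* and 2nd in Red*, after hairpins that were lower than in w1118, such as mir-286. The fold was 17.8 in Fab2L (95% interval 13.6 to 23.4), 17.8 in White* (13.6 to 23.3) and 17.4 in Red* (13.3 to 22.8). In heads the same line means stood 6.49-fold to 7.86-fold apart. The difference between the tissues was not tested, because the head contrasts hold libraries that chose the hairpin.

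**Figure D3:**
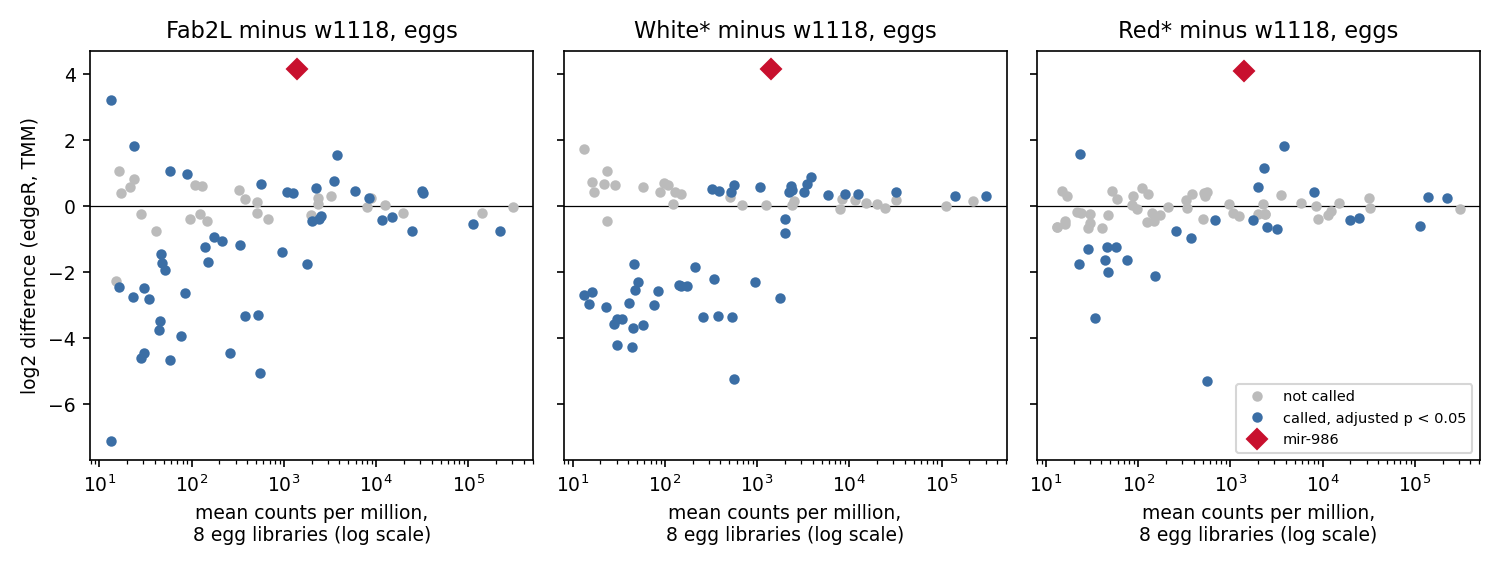
Log2 difference from w1118 in eggs (edgeR with TMM factors, vertical axis) of the 76 hairpins tested, against mean CPM over the 8 egg libraries (horizontal, log scale), for Fab2L, White* and Red*. Blue points were called at an adjusted p under 0.05, grey points were not, and the red diamond is mir-986, the highest point in each panel at 4.16, 4.16 and 4.12.

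Among the 3 transgenic lines mir-986 was not called in eggs, where 28.9% of hairpins were called for White* minus Fab2L, 55.3% for Red* minus Fab2L and 67.1% for Red* minus White*. The folds were 1.00 (95% interval 0.807 to 1.24, edgeR adjusted p = 0.998), 0.976 (0.789 to 1.21, edgeR adjusted p = 0.848) and 0.976 (0.790 to 1.21, edgeR adjusted p = 0.831) in that order. These small differences depend on scaling. Leaving out the TMM factors moved the median of all hairpins by 0.45 on the log2 scale between White* and Fab2L, and mir-986 was then lower in White*, at -0.45 (edgeR adjusted p = 0.0236). Without Red* replicate 1 in the fit, mir-986 was lower in White* than in Fab2L at -0.43 (edgeR adjusted p = 0.000108) and lower in Red* than in Fab2L at -0.28 (edgeR adjusted p = 0.0309). The balance of calls in eggs also moved with scaling. With TMM factors 15 hairpins were higher and 34 lower in Fab2L than in w1118, and without them 25 and 29. For White* minus w1118 the counts were 18 and 30 with the factors and 6 and 31 without. They were 12 and 10 against 1 and 23 for White* minus Fab2L, 29 and 13 against 21 and 22 for Red* minus Fab2L, and 29 and 22 against 31 and 13 for Red* minus White*.

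Of the hairpins of the early zygote, mir-286 and mir-5 also set the w1118 eggs apart. The 6 hairpins of that list (mir-309, mir-3, mir-286, mir-4, mir-5 and mir-6-1), which embryos transcribe when their own genome is activated, summed to 2009 and 2317 CPM in w1118 eggs and to 52.2 to 96.3 CPM in eggs of the other lines. Most of the sum was mir-286, which averaged 555 CPM over the 8 egg libraries, and mir-5 averaged 34.4 CPM. By contrast mir-3 and mir-4 averaged 1.83 and 1.97 CPM, and mir-309 and mir-6-1 were at 0. The sum is opposite in sign to mir-986, and its part in the result was not tested. In heads, where mir-986 also differed, the same list summed to 61.6 and 62.3 CPM in w1118 and 57.0 to 67.6 CPM elsewhere. Photoreceptor mRNAs (ninaE, ninaC, trp, chp), at low levels, summed to 7.95 and 7.20 FPKM in w1118 eggs, 0.907 and 0.894 FPKM in Fab2L, 1.72 and 1.88 FPKM in White*, and 6.81 and 6.54 FPKM in Red*, and their part was not tested either. Eggshell and somatic ovary mRNAs (Vm26Aa, Vm26Ab, Cp36) summed to 0 to 0.831 FPKM in eggs, and maternal bcd, osk, nos and grk to 443 to 553 FPKM.

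The other two hairpins were near the limit of detection in eggs. In w1118 mir-990 had 0 and 2 counts, in Fab2L 0 and 0, in White* 2 and 1, and in Red* 3 and 3. Apart from 1 count in Fab2L replicate 2, mir-4940 had 0 counts in every egg library. Neither passed the filter, so a line difference of the kind seen in heads was not detectable at this depth.

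Heads and eggs of Red* and White* were compared as well, with tissue, depth and library preparation going together. Over these libraries mir-990 had 5434 counts in heads and 9 in eggs, a ratio of shares of 32.7 with an exact 95% counting interval of 17.2 to 71.5. There were 216 counts of mir-4940 in heads and 0 of 3.35 M in eggs. The 0 was given an upper bound of 3 counts, a share of 0.896 CPM over the group, against 3.49 CPM in heads. Set against that bound the head share was 3.90-fold higher, with the counting error of the heads left out. No test is given for either hairpin, since each passed the filter through the heads alone. Both ratios are of raw shares: TMM factors lower heads against eggs by 1.90 on the log2 scale for the median hairpin, nearly the whole of the mir-4940 bound, so no difference of mir-4940 beyond that scaling is shown. For mir-986 the direction depends on scaling: by share it was 2.20-fold higher in heads in White* and 2.31-fold in Red*, whereas with TMM factors it was lower in heads, at -0.73 on the log2 scale (edgeR adjusted p = 0.00246), a call lost without either Red* egg library or White* egg replicate 1 (edgeR adjusted p up to 0.178). Dropping the factors gave 1.17 (edgeR adjusted p = 5.69e-05), a shift of 1.90 for the median hairpin. With the factors 83.2% of 137 hairpins were called, 68 higher in heads and 46 lower. Without the factors 95 were higher and 26 lower. In every line the share of mir-986 was higher in heads, by 5.13-fold in w1118 and 1.57-fold in Fab2L. The test of whether Red* minus White* of mir-986 differs between heads and eggs did not pass (log2 0.19, edgeR adjusted p = 0.516).

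Long RNA was read from the host and neighbour genes, which were chosen by position alone, in FPKM and tested with limma on log2(FPKM + 1). Of the 3 hosts and 19 neighbours, 3 and 11 passed the FPKM filter in heads. Cyp4e2, the host of mir-986, had 54.7 and 53.2 FPKM in w1118 heads, 40.2 and 40.3 in Fab2L, 32.8 and 38.6 in White*, and 44.2 and 41.9 in Red*. All 6 libraries with the transgene lay below w1118, opposite in sign to mir-986. The log2 difference from w1118 was -0.41 in Fab2L (limma adjusted p = 0.0421), -0.59 in White* (0.0119) and -0.32 in Red* (0.0669, not called), where 6.63%, 5.67% and 11.8% of 11119 genes were called. The call in Fab2L was lost in 6 of the 8 fits that left out 1 library each, with limma adjusted p up to 0.179, and that in White* in 3, up to 0.0679.

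Cyp4e1, a second P450 gene 2.37 kb from the hairpin, differed more. Its level was 8.13 and 8.86 FPKM in w1118 heads, 3.83 and 4.23 in Fab2L, 3.31 and 3.38 in White*, and 4.60 and 4.42 in Red*. Again w1118 lay above every other library. The log2 differences of -0.92, -1.13 and -0.79 were called (limma adjusted p = 0.00187, 0.000731 and 0.00385), and they kept their call in all 8 fits without 1 library. The paralogs Cyp4e1 and Cyp4e2 may share some reads. Fat body mRNAs, given above, were higher in w1118 heads too, and the depth of the long RNA libraries was 26.1 and 30.8 M in w1118 against 13.3 to 16.5 M in Fab2L and White* and 26.03 and 38.2 M in Red*. Their part in these differences was not tested.

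**Figure D4:**
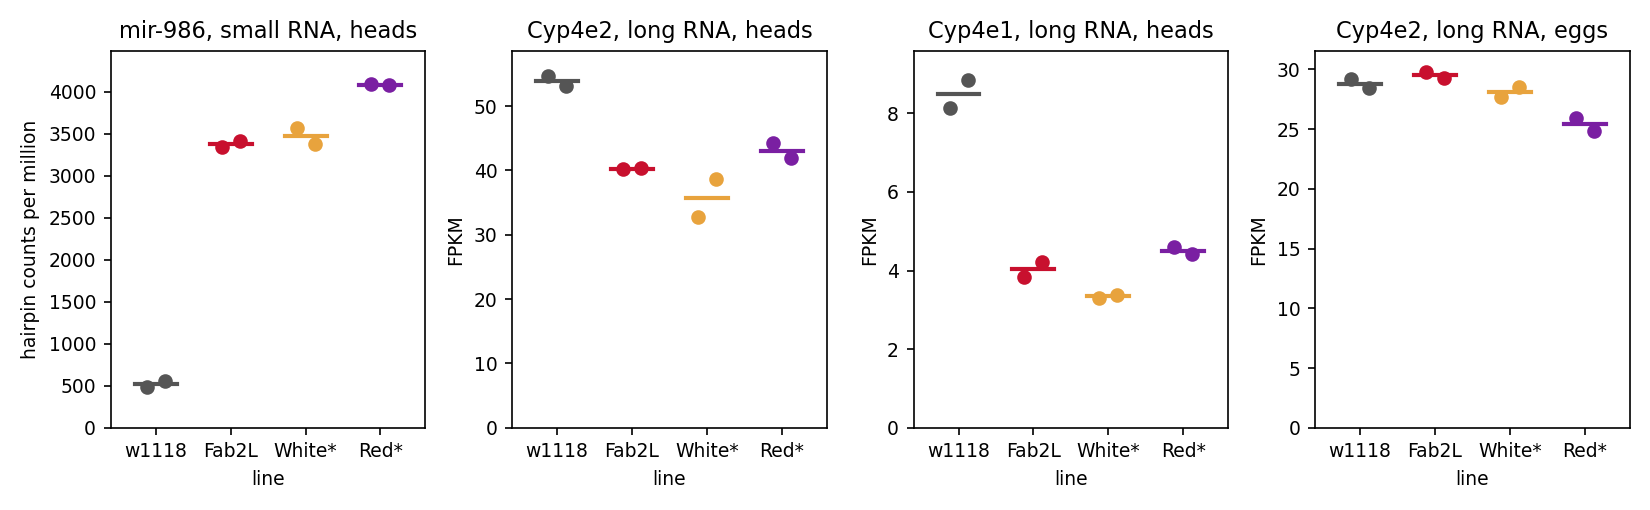
Level of mir-986 in head small RNA (CPM) beside long RNA of its host Cyp4e2 and neighbour Cyp4e1 (FPKM), by line. Each point is 1 library, each bar the mean of 2, and all axes start at 0. In heads mir-986 is lowest and both P450 genes are highest in w1118, while Cyp4e2 in eggs lies between 24.8 and 29.8 FPKM in every library.

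In eggs Cyp4e1 was at 0 in all but 1 library, where it had 0.02 FPKM. Cyp4e2 had 29.2 and 28.4 FPKM in w1118 eggs, 29.8 and 29.3 in Fab2L, 27.7 and 28.5 in White*, and 25.97 and 24.8 in Red*. Fab2L and White* did not pass the test against w1118, at 0.04 (95% interval -0.07 to 0.14, limma adjusted p = 0.595) and -0.03 (-0.14 to 0.07, limma adjusted p = 0.612). Red* was lower by -0.17 (limma adjusted p = 0.0172), a call lost without 1 of the 2 Red* libraries or either w1118 library, with limma adjusted p up to 0.085. For these Red* libraries titles and deposited file names number the replicates differently, and values are given in the order of the titles. In these 3 egg contrasts 29.1%, 37.8% and 44.4% of 6682 genes were called. In eggs mir-986 differed by about 4 on the log2 scale, and the intervals of Cyp4e2 mRNA reached no further than -0.28 and 0.14. How the level of the hairpin relates to transcription of its host was not tested.

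Long RNA reads on the mir-986 hairpin itself, which cannot be told from reads of Cyp4e2, were few. Worked back from FPKM and length, they numbered 20 and 22 in w1118 heads, 6 and 5 in Fab2L, 6 and 4 in White*, and 9 and 18 in Red*. As FPKM these are 6.49 and 8.42, 4.53 and 3.43, 3.63 and 2.79, and 3.46 and 4.71, again highest in w1118. The log2 differences of -0.76, -1.01 and -0.74 had limma adjusted p of 0.0591, 0.0239 and 0.0474. White* and Red* passed, and these calls were lost in 3 and 7 of the 8 fits without 1 library. The call in Red* was also lost under each of the 3 changed settings (limma adjusted p of 0.0533 to 0.0876), and that in White* without the FPKM filter (0.0523). On the mir-990 hairpin the values were 18.9 and 19.6 FPKM in w1118 heads, 14.0 and 21.6 in Fab2L, 12.7 and 13.8 in White*, and 12.5 and 17.7 in Red*, with no call. No long RNA read fell on mir-4940.

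The hosts of mir-990 and mir-4940 were not called against w1118 in heads. CG8910 had 6.23 and 7.33 FPKM in w1118, 5.47 and 6.23 in Fab2L, 6.83 and 5.73 in White*, and 8.71 and 6.95 in Red*, so that the lines overlapped. Its log2 differences from w1118 were -0.18, -0.10 and 0.18, with intervals from -0.51 at the lowest to 0.50 at the highest. For nwk the values were 41.9 and 52.1 FPKM in w1118, 33.6 and 37.6 in Fab2L, 41.5 and 35.5 in White*, and 48.9 and 43.9 in Red*. Its differences were -0.38 (95% interval -0.69 to -0.08), -0.28 (-0.58 to 0.03) and -0.01 (-0.32 to 0.30). Both hosts were nearly silent in eggs, at no more than 0.02 FPKM for CG8910 and 0.07 for nwk, the tissue where their hairpins were near 0.

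Of the neighbours, inaC, the eye protein kinase C that shuts off the light response, lies 3.23 kb from mir-990 and had 304 to 396 FPKM over the 8 head libraries with no call against w1118. Dhpr, which encodes dihydropteridine reductase and lies 8.68 kb from mir-4940, was lower in Red* heads than in w1118 by -0.58 (limma adjusted p = 0.0111), a call lost without w1118 replicate 2 or Red* replicate 1. Rdl, a GABA receptor subunit, lies 1.14 kb from mir-4940, and bol, an RNA-binding regulator of meiosis, lies 10.2 kb from it. Both were higher in Red* than in White* heads, by 0.83 and 0.77 (limma adjusted p = 0.0441 and 0.0293), where 3.87% of genes were called. Each of these calls was lost in 5 of the 8 fits without 1 library. In eggs the maltase gene Mal-A5, 17.7 kb from mir-986, had 60.5 and 61.5 FPKM in w1118 and 47.0 to 51.8 FPKM in the other lines (log2 -0.23, -0.34 and -0.30, limma adjusted p = 0.0134, 0.00202 and 0.0033). The Fab2L call was lost in 4 of the 8 fits without 1 library. Dhpr in eggs was lower in Fab2L and White* (-0.18 and -0.16, limma adjusted p = 0.0354 and 0.0417) and higher in Red* (0.21, limma adjusted p = 0.0141), calls lost in 6, 6 and 2 of those fits. Use1, 7.41 kb from mir-4940, was higher in White* eggs (0.22, limma adjusted p = 0.0347). Only 4 of the 19 neighbours were tested in eggs, with 0 higher and 2 lower in Fab2L, 1 and 2 in White*, and 1 and 1 in Red*. Of all genes in eggs 29.1%, 37.8% and 44.4% were called in these contrasts. In all, 1 host and 1 neighbour were lower and none higher in Fab2L heads than in w1118, the same numbers in White*, and 0 hosts and 2 neighbours lower in Red*. With 3 hosts and 11 neighbours tested, such small counts are read against the 6.63%, 5.67% and 11.8% of all genes called, and set these genes little apart. In Fab2L this came with a median log2 difference over the neighbours tested of -0.11 against -0.01 for all genes.

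The genes that make and load microRNAs were read from a list of 15, all of which passed the filter in both tissues. In heads none was called for Fab2L or White* minus w1118, with medians of 0.04 and 0.03 against -0.01 for all genes in both. In Red* heads gw, the Argonaute partner GW182, was higher (0.31, limma adjusted p = 0.0493) and Ranbp21, an exportin, was lower (-0.40, limma adjusted p = 0.0308). Both calls were lost in each of the 8 fits without 1 library, with limma adjusted p up to 0.223. AGO1 had 44.3 and 47.1 FPKM in w1118 heads and 43.2 to 56.5 FPKM in the other lines, and Dcr-1 6.24 and 6.24 against 5.89 to 7.005 FPKM. In eggs 2 genes were higher and 1 lower in Fab2L than in w1118, 5 and 1 in White*, and 4 and 2 in Red*. With 15 genes tested these counts are near the 29.1%, 37.8% and 44.4% of all genes called. Only pasha was higher in all 3, at 11.5 and 12.1 FPKM in w1118 eggs and 13.3 to 14.3 FPKM elsewhere (log2 0.23, 0.24 and 0.20, limma adjusted p = 0.0136, 0.0084 and 0.0166). Each of these calls was lost in 2 of the 8 fits without 1 library. AGO2, the Argonaute of small interfering RNAs, had 32.5 and 33.6 FPKM in w1118 eggs, was lower in Fab2L (-0.33, limma adjusted p = 0.0215) and higher in Red* (0.52, limma adjusted p = 0.00216). The call in Red* held in all 8 fits without 1 library, and the call in Fab2L was lost in 3, up to 0.120.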

How the data were processed

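For small RNA the deposited files hold a unique read count per hairpin, and Bowtie and build dm6 are named per the submitters' processing notes. For long RNA the authors gave FPKM per gene, with STAR 2.5 and DESeq2 per the submitters' processing notes. The counting tools, their settings and the annotation release are not given in the sources used here. What a unique count excludes is not stated either, so hairpins with near-identical copies may be undercounted.

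Hairpin counts were tested with edgeR 4.0.16 (quasi-likelihood, TMM factors, filterByExpr by line), fitting the 8 libraries of a tissue at once. Long RNA was tested with limma 3.58.1 (trend) on log2(FPKM + 1), keeping genes that exceeded 1 FPKM in 2 or more libraries of the tissue. This scale understates changes of low genes. Adjustment was by Benjamini-Hochberg over all features tested, and an adjusted p under 0.05 was called. On simulated hairpin counts the count test missed part of the smaller differences between lines. In a separate simulation of long RNA, limma recovered differences that were added to genes of higher level, so low genes were not covered. Reads on hairpins in long RNA were worked back from FPKM times length, whole within 0.01 for 100% of values above 0, on the 235 of 262 annotated microRNA genes whose identifiers matched. Gene names and positions come from RefSeq tables on dm6.

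The members and lists were chosen with earlier results of these data known. Named were the 3 hairpins, hosts and neighbours within 20 kb, the 5 next hairpins by size in the choosing contrast, the 3 most correlated with each member, and the machinery list. Alternatives used DESeq2 1.42.0, other scalings and filters, a pseudocount of 0.1 and left-out libraries. The 2 libraries of a line differed by a chi-square per degree of freedom of 7.43 to 754 in small RNA, so none is a copy.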

Additional observations from a re-analysis of the deposited data

Results flagged for a closer look

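The level of mir-986 in Red* minus that in Fab2L ran in opposite directions in the 2 tissues. By line means in CPM (counts scaled to 1 M summed hairpin counts) it was -384 in eggs, where both Fab2L libraries lay above both of Red*, and 708 in heads, where both Red* libraries lay above both of Fab2L. The difference between the tissues was not tested, since the Fab2L heads chose the hairpin. With TMM factors the egg difference was -0.03 on the log2 scale and was not called (edgeR adjusted p = 0.848).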

How the results depend on the processing

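The excess of mir-986 over w1118 in eggs kept its sign and its call under all 6 changed settings and in all 8 fits without 1 library, in each transgenic line. It ranged from 3.90 to 4.66 on the log2 scale without 1 library and from 3.95 to 4.58 over the settings. For the choosing contrast in heads, fits without 1 library gave 2.70 to 2.93 for mir-986, -2.04 to -1.91 for mir-990 and -2.95 to -2.70 for mir-4940. Without TMM factors mir-990 gave -2.09. The hairpins were chosen on this contrast, so its steadiness is a description and no independent check.

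The small differences of mir-986 among the transgenic lines in eggs changed sign. White* minus Fab2L was -0.26 without the 5 most abundant hairpins, -0.24 in DESeq2, -0.055 without a filter, -0.45 without TMM factors and -0.0031 with only these 2 lines in the fit, and -0.49 to 0.022 without 1 library. Red* minus White* was 0.23, 0.086, 0.084 and 0.16 under the first 4 of these settings and -0.033 to 0.26 without 1 library. Red* minus Fab2L was 0.029 without a filter and -0.28 to 0.043 without 1 library. In heads, Red* minus White* without 1 library ranged from -0.39 to 0.19 for mir-4940 and from -0.16 to 0.12 for mir-990. White* minus w1118 in heads, not called for either gene, ranged from -0.038 to 0.050 for gw and from -0.051 to 0.024 for Ranbp21 without 1 library. Of these, calls appeared as given in the report for White* minus Fab2L and Red* minus Fab2L.

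The count of hairpins called between Red* and White* heads, 4, became 8 in DESeq2, 1 with only these lines in the fit, and 0 to 6 without 1 library, with 0 without either White* library and 1 without either Fab2L library. Heads minus eggs for mir-986 was 1.17 without TMM factors, -0.44 without a filter (edgeR adjusted p = 0.141), and -0.93 to -0.33 without 1 library. Calls of host, neighbour and machinery genes against w1118, 8 in heads and 23 in eggs, ranged from 3 to 7 and from 10 to 21 without 1 library. The fits without TMM factors differ by the scaling shift given in the report, and for the other changes the cause was not tested.

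Same-numbered libraries did not deviate together (correlations of -0.36 to 0.36), so the numbers were not taken as pairs. With the replicate block, egg hairpin calls were 242 in place of 239 over the 6 contrasts, and head calls between Red* and White* were 5. With a pseudocount of 0.1 the call of the mir-986 interval in Red* heads was lost (limma adjusted p = 0.0533). With the replicate block the calls of Cyp4e2 in Fab2L heads (limma adjusted p = 0.0729), the mir-986 interval in Red* heads (0.0757), gw in Red* heads (0.0708), Rdl (0.0702) and bol (0.0502) were lost. Without the FPKM filter the calls of both P450 genes held, and those of bol, Rdl, Ranbp21 in Red* heads, the mir-986 interval in White* and Red* heads, AGO2 in Fab2L eggs and Dhpr in Fab2L and White* eggs were lost, with limma adjusted p of 0.0523 to 0.0876. The planned use of another count column was not run, since each file has 1. Depth limits mir-990 and mir-4940 in eggs to 0 to 3 counts.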
